A study of Sus scrofa with 8 samples.

Results

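Of the 10 genes of de novo lipogenesis and triglyceride synthesis chosen by name, 8 were matched through their symbol to a row of the mRNA table, which lists 21607 Ensembl identifiers, 11654 of them with a symbol. The 8 genes were ACLY (ENSSSCG00000017421), ME1 (ENSSSCG00000004454), ACACA (ENSSSCG00000017694), FASN (ENSSSCG00000029944), GPAM (ENSSSCG00000010631), LPIN1 (ENSSSCG00000008624), DGAT1 (ENSSSCG00000005918) and MLXIPL (ENSSSCG00000007710). AGPAT2 and DGAT2 were not matched to a row and were not analysed here. Livers of 2 young sows (180 days of age) were compared with those of 2 old sows (8 years of age), with 1 rRNA-depleted RNA-seq library per sow, to ask how liver transcripts differ with age. All sows were healthy, unrelated Yanan pigs, an indigenous Chinese breed, and had no access to food in the night before slaughter. By the study's description, the young sows had never farrowed and the old sows had borne litters for years before they were culled, so age and parity cannot be told apart. The p-values rest on 2 against 2 animals of a single sex.

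De novo lipogenesis is the route by which the liver turns surplus carbohydrate into fat. Citrate leaves the mitochondrion and is split into acetyl-CoA, which is carboxylated to malonyl-CoA and then built into palmitate with reducing power from NADPH. In triglyceride synthesis, fatty acids are joined one after another to glycerol-3-phosphate, the phosphate is removed and a last fatty acid is added. The genes of both routes are switched on after feeding by insulin and glucose, mainly through the transcription factors SREBP-1c and ChREBP, the latter encoded by MLXIPL. In pigs, adipose tissue carries much of the body's fatty acid synthesis.

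Values are reads per gene scaled to the size of the library (CPM) with no correction for gene length, so a level is compared here between livers and never between genes. The libraries held between 22482241 and 37555696 reads on mRNA rows, with both young libraries above both old ones. Fold changes are differences of log2(CPM + 1), old minus young, fitted with limma over the 16898 rows above 0 in at least 2 libraries, and a call needed an adjusted p-value under 0.05 and an absolute log2 fold change above 1. On this scale the change of a gene near 1 CPM is understated. The labelled tissue showed in 15 hepatocyte markers with a row, of which ALB ranged from 16534 to 35205 CPM. Their summed level was 92227 and 102350 CPM in young sows and 64695 and 71030 CPM in old sows. All mRNA rows together were also lower in old sows, with 365330 and 346173 CPM against 408898 and 428910 CPM in young sows. The main fit did not rescale the libraries for this, and its part in the marker sums was not tested. In bulk tissue, fewer cells of a type and less RNA per cell cannot be told apart. Old replicate 1 stood apart by its interferon-stimulated genes, 13 of which summed to 1753 CPM there against 31.8 to 45.1 CPM in the other libraries, and the fold changes of the 8 genes without that library are given beside their results.

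FASN, the enzyme complex that builds palmitate, had the largest fold change of the 8 genes over all 4 libraries, and GPAM, which starts glycerolipid synthesis, was the one gene lower in both old livers than in both young ones. ACLY was also higher in both old livers than in both young ones, while ACACA, ME1, LPIN1, DGAT1 and MLXIPL overlapped between the age groups. With limma, 0 of the 8 genes were called, where 0.0% of all rows were called. At an unadjusted p-value under 0.05 in limma there was 1 gene higher in old livers, FASN, where 6.78% of all rows were higher, and 1 gene lower, GPAM, where 8.93% were lower. FASN passed that threshold without either old library and missed it without either young library, and GPAM missed it without young replicate 2 or old replicate 1. With all libraries but young replicate 1, young replicate 2, old replicate 1 or old replicate 2, the log2 fold change was 2.004, 1.72, 2.33 or 1.40 for FASN and -1.10, -0.80, -0.74 or -1.15 for GPAM. Read as groups that do not overlap, 2 of 8 genes (25.0%) were higher in old livers against 24.4% of all rows, and 1 of 8 (12.5%) was lower against 25.0%. As a set the genes were therefore near or under the share of all rows. On the recovered reads, the exact test of edgeR called 1 of the 8 genes, FASN, where 3.16% of all rows were called and 2.7% were called higher in old livers. DESeq2 called the same gene, where 5.21% of rows were called and 4.04% were called higher, and the quasi-likelihood test of edgeR called 0, as of all rows (0.0%).

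**Figure D1:**
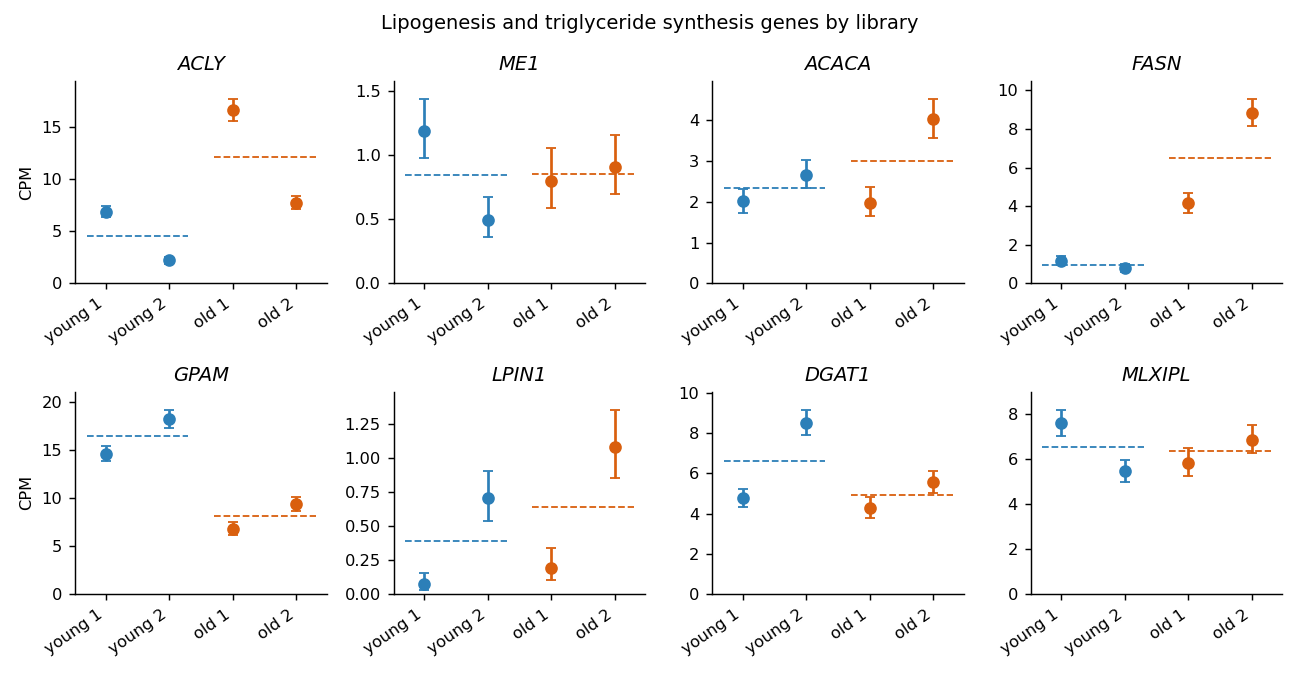
CPM of the 8 genes (y axes from 0, a scale per gene) in each of the 4 libraries (x axis), with young livers in blue and old livers in orange. Bars are 95% exact Poisson intervals of the reads, which cover counting error only, and dashed lines are the means of 2 libraries. FASN, ACLY and GPAM are the genes whose blue and orange points do not overlap, with FASN between 0.774 and 1.15 CPM in young livers and 4.16 and 8.81 CPM in old livers.

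The first genes supply the substrates. ACLY encodes ATP citrate lyase, which makes cytosolic acetyl-CoA from citrate. It stood at 6.86 and 2.21 CPM in the young pair (replicates 1 and 2, 630 and 191 reads) and at 16.6 and 7.71 CPM in the old pair (1020 and 554 reads). Both old livers were above both young livers, but old replicate 2 was close to young replicate 1, and the replicates differed 3.11-fold among the young and 2.15-fold among the old livers. The means were 4.53 ± 3.29 and 12.1 ± 6.27 CPM (SD, n = 2), a ratio of 2.68. The log2 fold change was 1.30 with a standard error of 0.65 and a 95% interval from -0.68 to 3.28 (adjusted p = 0.453, limma). It was 0.80 without old replicate 1, 1.81 without old replicate 2, 0.65 without young replicate 2 and 1.95 without young replicate 1. Without old replicate 2 the fold change of ACLY was thus above that of FASN, which was 1.40.

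ME1 encodes the cytosolic malic enzyme, which supplies NADPH. Its levels were low, 1.19 and 0.497 CPM in young sows (109 and 43 reads) and 0.796 and 0.905 CPM in old sows (49 and 65 reads). The old livers lay between the young ones. On the log2 scale ME1 differed by 0.03 with a 95% interval from -0.70 to 0.77 (adjusted p = 0.967, limma), and by 0.07 without old replicate 1.

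The next genes make the fatty acid. ACACA encodes acetyl-CoA carboxylase alpha, which forms malonyl-CoA. It had 2.01 and 2.67 CPM in young sows (185 and 231 reads) and 1.98 and 4.02 CPM in old sows (122 and 289 reads). Old replicate 1 was level with young replicate 1, whose counting intervals were 1.65 to 2.37 and 1.73 to 2.33 CPM, and old replicate 2 was the highest library. For ACACA the difference was 0.22 ± 0.33 (log2, standard error, adjusted p = 0.808, limma) and changed sign with the library left out, from -0.16 without old replicate 2 to 0.60 without old replicate 1.

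FASN, the fatty acid synthase, had 1.15 and 0.774 CPM in the young pair (replicates 1 and 2, 106 and 67 reads) and 4.16 and 8.81 CPM in the old pair (256 and 633 reads). Every old library was above every young one, and the lowest old value was 3.67 to 4.70 CPM by counting error alone against at most 1.40 CPM for the highest young value. The means were 0.964 ± 0.269 and 6.49 ± 3.29 CPM (SD, n = 2), a ratio of 6.73. The log2 fold change was 1.86 (standard error 0.39, 95% interval 0.67 to 3.06), with an unadjusted p-value of 0.0148 and an adjusted p-value of 0.241 in limma. Of all rows tested, 1.12% had a higher fold change. The exact test of edgeR on reads gave a log2 fold change of 2.95 with an adjusted p-value of 0.00524, DESeq2 gave 2.94 with an adjusted p-value of 0.000381, and the quasi-likelihood test of edgeR gave 2.95 with an adjusted p-value of 0.276. The log2 fold change of FASN stayed above 1 with each library left out, from 1.40 without old replicate 2 to 2.33 without old replicate 1. The two-sided exact permutation test of a single gene cannot go below p = 0.333 with 2 against 2 animals, and FASN, ACLY and GPAM each had that value.

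Because FASN is also abundant in fat cells, adipocyte markers were read beside it. Of 10 markers, 5 had a row. PLIN1, which coats the lipid droplet of fat cells, had 6 and 0 reads in young sows and 18 and 22 reads in old sows, and LIPE, hormone-sensitive lipase, had 7 and 1 reads and 13 and 17 reads. RETN, which encodes resistin, had reads in old replicate 1 only, 15 of them. CFD, which encodes complement factor D, was at 5.26 and 5.30 CPM in young sows and at 44.1 and 51.3 CPM in old sows, whereas CIDEC, another lipid droplet protein, was at 14.2 and 6.91 CPM and at 4.62 and 3.73 CPM. The summed level of the 5 markers was 12.2 to 19.6 CPM in young sows and 49.4 to 55.6 CPM in old sows, most of it CFD in the latter. No marker was at 0 in all libraries, and the part of this difference in the result for FASN was not tested.

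The 5 genes closest to FASN in pattern, by Euclidean distance of centred log2(CPM + 1) over the 4 libraries and among 2476 other symbols with a mean of at least 5 CPM, were LMF1, PPM1F, SARDH, WASHC5 and GOLM1. The distances ran from 0.420 to 0.467. LMF1, which is needed for the maturation of lipases, had 3.59 and 3.004 CPM in young sows and 7.38 and 15.4 CPM in old sows. SARDH, sarcosine dehydrogenase, had 2.79 and 2.78 CPM and 6.97 and 21.2 CPM. In both, as in FASN, old replicate 2 was the highest library.

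**Figure D2:**
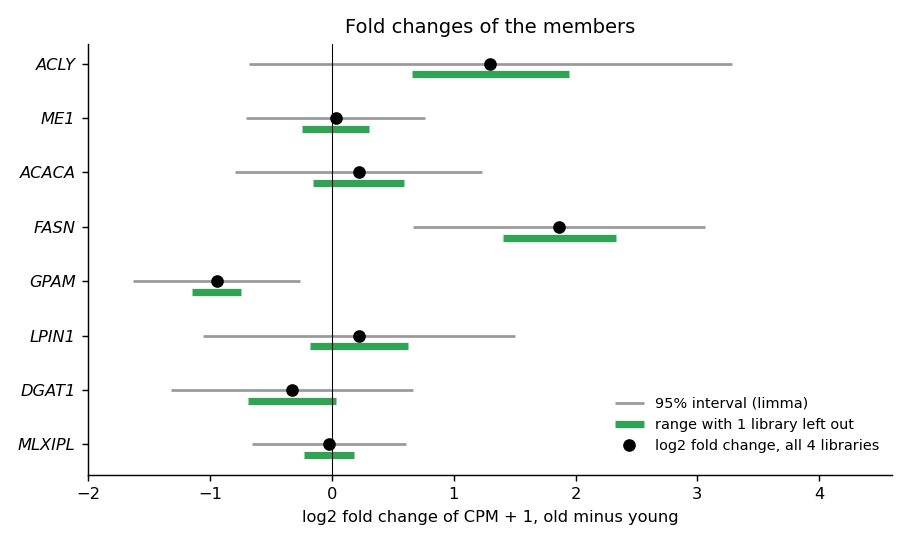
Log2 fold change of CPM + 1, old minus young (x axis), for the 8 genes (y axis). Black points are the estimates from all 4 libraries, grey lines the 95% intervals of limma and green bars the range of the estimates with 1 library left out. The interval of FASN runs from 0.67 to 3.06 and that of GPAM from -1.63 to -0.26, and the other 6 include 0.

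The remaining enzymes build the triglyceride. GPAM encodes the mitochondrial glycerol-3-phosphate acyltransferase, which adds the first fatty acid to glycerol-3-phosphate. It had 14.7 and 18.3 CPM in the young pair (replicates 1 and 2, 1347 and 1581 reads) and 6.83 and 9.38 CPM in the old pair (420 and 674 reads). Both old livers were below both young livers, and the means of 16.5 ± 2.54 and 8.10 ± 1.81 CPM (SD, n = 2) differed 2.03-fold. The log2 fold change was -0.95 (standard error 0.22, 95% interval -1.63 to -0.26), with an unadjusted p-value of 0.0207 and an adjusted p-value of 0.255 in limma. It ranged from -1.15 without old replicate 2 to -0.74 without old replicate 1. On the recovered reads GPAM had adjusted p-values of 0.617 in the exact test of edgeR and 0.331 in DESeq2. FASN and GPAM were thus at opposite ends of the 8 genes, and the ratio of FASN to GPAM reads within a library, which no scaling of the library affects, was 0.0787 and 0.0424 in young sows and 0.610 and 0.939 in old sows. Over all 28 pairs of the 8 genes, 13 ratios (46.4%) did not overlap between the age groups, where 46.3% of all pairs of rows above 0 in every library did not.

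LPIN1 encodes lipin 1, the phosphatidate phosphatase that yields diacylglycerol and that also acts in the nucleus on transcription. It was the least covered of the 8 genes, with 0.076 and 0.705 CPM in young sows (7 and 61 reads) and 0.195 and 1.09 CPM in old sows (12 and 78 reads). The libraries with replicate number 2 were the high ones in both age groups, and replicates of 1 age differed 9.28-fold among young and 5.57-fold among old livers. These gaps exceeded counting error, whose intervals were 0.031 to 0.157 CPM and 0.539 to 0.905 CPM for the young livers. LPIN1 thus had a log2 fold change of 0.22 with a 95% interval from -1.06 to 1.504 (adjusted p = 0.853, limma), and of 0.62 without old replicate 1 and -0.18 without old replicate 2. No difference by age was detectable.

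DGAT1 encodes a diacylglycerol acyltransferase, which adds the last fatty acid. It had 4.75 and 8.49 CPM in young sows (436 and 735 reads) and 4.27 and 5.56 CPM in old sows (263 and 399 reads). Young replicate 2 was the highest library and the other libraries lay between 4.27 and 5.56 CPM. DGAT1 differed by -0.33 on the log2 scale with a standard error of 0.33 (adjusted p = 0.697, limma), and by 0.03 without young replicate 2 and -0.17 without old replicate 1.

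MLXIPL encodes ChREBP, the glucose-responsive transcription factor of FASN, ACLY and ACACA. It had 7.59 and 5.47 CPM in young sows (697 and 473 reads) and 5.83 and 6.86 CPM in old sows (359 and 493 reads). The old livers lay between the young ones. Between the ages MLXIPL differed by a log2 fold change of -0.02 with a 95% interval from -0.66 to 0.61 (adjusted p = 0.971, limma), and its sign turned under TMM scaling (0.15) and without old replicate 1 (0.08). The transcript of MLXIPL overlapped between the ages, while those of FASN and ACLY did not. The activity of ChREBP was not measured, and its part in the levels of FASN and ACLY was not tested.

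Among themselves the 8 genes did not share an order of livers. Old replicate 2 was the highest library for 3 genes (FASN, ACACA and LPIN1), young replicate 1 for 2 (ME1 and MLXIPL), young replicate 2 for 2 (GPAM and DGAT1) and old replicate 1 for 1 (ACLY). The lowest library was young replicate 2 for 4 genes, old replicate 1 for 3 and young replicate 1 for 1. The median gap between replicates on log2(CPM + 1) was 0.48 between the young and 0.58 between the old livers, against 0.34 and 0.40 over the 9790 tested rows with a mean of at least 1 CPM. The median log2 fold change of the 8 genes was 0.13, against -0.02 over all rows tested, and it was 0.34 without old replicate 1 and -0.14 without old replicate 2.

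**Figure D3:**
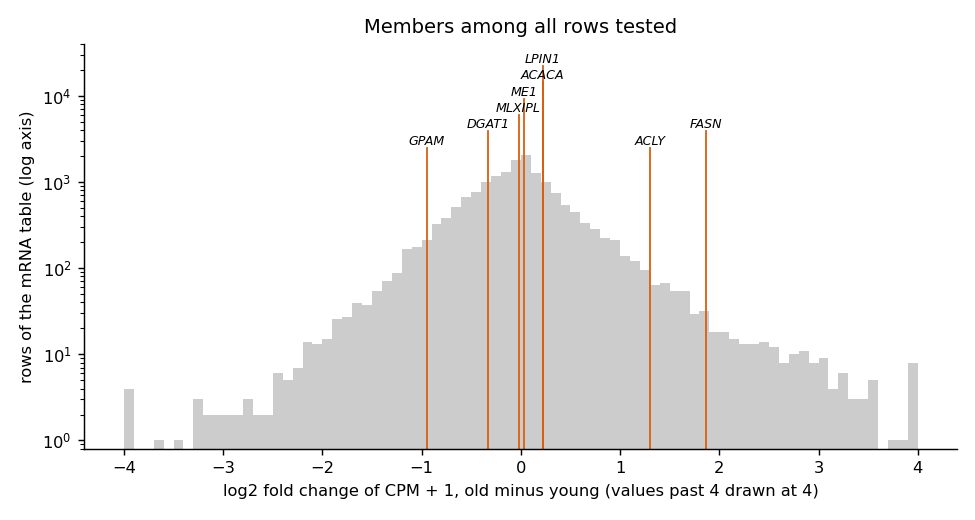
Distribution of the log2 fold change of CPM + 1, old minus young (x axis), over the 16898 rows tested (grey bars, counts on a log y axis), with the 8 genes as orange lines whose height carries no value. FASN lies at 1.86 in the upper tail, where 1.12% of rows are higher, ACLY at 1.30 with 2.82% of rows higher, and GPAM at -0.95 with 5.17% of rows lower, and the other 5 lie between -0.33 and 0.22.

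Of 75 other genes of the pathway in 4 lists, 56 had a row and were tested. In limma 0 of the 56 were called. In limma, an unadjusted p-value under 0.05 was met by 4 genes (7.14%) with more reads in old livers and 9 (16.1%) with fewer, against 6.78% and 8.93% of all rows. Without old replicate 1 these counts were 4 and 8, and without young replicate 1 they were 6 and 5. The exact test of edgeR called 3 of the 56 and DESeq2 called 4. Of all rows, the exact test called 0.456% and DESeq2 called 1.17% lower. Over the 56 genes the median log2 fold change was -0.13, against -0.02 over all rows, in the main fit, which did not rescale the libraries.

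Of 18 regulators of lipogenesis, 13 had a row, and SREBF1 (SREBP-1c) and THRSP were not matched and not analysed here. MID1IP1, which activates acetyl-CoA carboxylase by helping it to polymerise, was at 1.002 and 0.878 CPM in young sows and at 3.66 and 4.62 CPM in old sows. The difference was 1.40 on the log2 scale with a standard error of 0.16 (adjusted p = 0.213, limma), and it was called by the exact test of edgeR (adjusted p = 0.0126) and by DESeq2 (adjusted p = 0.000433). As with FASN, both old livers were above both young ones. XBP1, a transcription factor of the secretory pathway that also drives lipogenic genes, was lower, at 112 and 93.1 CPM in the young and 53.6 and 57.5 CPM in old sows (log2 fold change -0.86, adjusted p = 0.223, limma). NFYA, a subunit of the CCAAT-binding factor that works beside SREBP, was the other regulator lower at an unadjusted p-value under 0.05, with 1.48 and 1.06 CPM and 0.260 and 0.418 CPM. It is named after its values were seen. NR1H3, the LXR alpha receptor that induces SREBP-1c, overlapped between the ages (64.7 and 93.6 CPM and 74.8 and 83.6 CPM), as did SCAP, the escort protein of SREBP.

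Of 22 genes of fatty acid synthesis and supply, 17 had a row, and 14 of the 17 had a negative fold change in limma. The median of the 17 was -0.44, against -0.02 over all rows tested. It was -0.15 without old replicate 1 and -0.71 without old replicate 2. The main fit did not rescale the libraries. TMM scaling multiplied the young libraries by 0.912 and 0.954 and the old ones by 1.07 and 1.07. With TMM scaling the log2 fold changes of ACSL1 and IDH1, described below, were -1.72 and -1.46. The part of scaling in the median of the 17 was not tested. Some signs depended on the test. SCD, ACSS2 and HACD3 were negative in limma but had log2 fold changes of 0.28, 0.02 and 0.13 in the exact test of edgeR. ACACB and ELOVL6 were not matched. ACSL1, which activates long-chain fatty acids to their CoA esters, was at 381 and 353 CPM in young sows and at 89.0 and 104 CPM in old sows. The difference was -1.92 on the log2 scale with a standard error of 0.14 (adjusted p = 0.213, limma), and it was called by the exact test of edgeR (adjusted p = 0.0418) and by DESeq2 (adjusted p = 7.3e-06). IDH1, a cytosolic NADPH source, had 101 and 85.4 CPM in the young and 28.0 and 29.5 CPM in old sows (log2 fold change -1.66, adjusted p = 0.213, limma), and DESeq2 called it (adjusted p = 0.000176). MCAT, of mitochondrial fatty acid synthesis, was the other gene of this list lower at an unadjusted p-value under 0.05, named after its values were seen, with 3.90 and 4.95 CPM and 1.80 and 2.30 CPM. SCD, the desaturase that acts on the products of FASN, ranged as widely within an age as between ages, with 6.08 and 16.0 CPM in the young and 3.58 and 20.0 CPM in old sows (log2 fold change -0.16, standard error 0.998, adjusted p = 0.958, limma), and its sign turned under TMM scaling (0.01) and without old replicate 1 (0.93).

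Of 21 other genes of glycerolipid synthesis, 14 had a row, and an unadjusted p-value under 0.05 in limma was met by 0 with higher and 2 with lower levels in old livers, while the exact test of edgeR, its quasi-likelihood test and DESeq2 called 0. Of the other glycerol-3-phosphate acyltransferases, GPAT2 was not matched to a row. GPAT3 (2.55 and 3.70 CPM in the young, 5.35 and 2.16 CPM in old sows) and GPAT4 (16.0 and 19.1 CPM, 24.4 and 14.5 CPM) did not follow GPAM, as both overlapped between the ages. That comparison with GPAM is of values and was not tested. GPD1L, related to the enzyme that makes glycerol-3-phosphate, had 19.5 and 16.6 CPM in the young and 3.36 and 8.07 CPM in old sows (log2 fold change -1.60, adjusted p = 0.274, limma). LPGAT1, a lysophospholipid acyltransferase, had 42.8 and 28.0 CPM and 5.31 and 15.6 CPM (log2 fold change -1.80, adjusted p = 0.323, limma). In both, old replicate 1 was the lowest library, and without it the log2 fold changes were -1.07 for GPD1L and -1.11 for LPGAT1, against -2.12 and -2.50 without old replicate 2. PLPP3, a lipid phosphate phosphatase named after its values were seen, was the other gene lower at an unadjusted p-value under 0.05, with 37.5 and 34.8 CPM and 14.3 and 22.1 CPM. PNPLA3, a lipid droplet acylhydrolase induced with lipogenesis, had 0.196 and 1.49 CPM in the young and 5.35 and 0.724 CPM in old sows, so its high value came from old replicate 1, without which the log2 fold change was -0.0014.

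Of 14 genes that supply sugar carbon, 12 had a row, and an unadjusted p-value under 0.05 in limma was met by 2 with higher and 2 with lower levels in old livers, with 0 called by limma, by either test of edgeR or by DESeq2. PFKL, the liver phosphofructokinase of glycolysis, had 1.62 and 0.416 CPM in young sows and 4.65 and 4.82 CPM in old sows (log2 fold change 1.57, standard error 0.36, adjusted p = 0.251, limma). TKFC, which phosphorylates glyceraldehyde in the breakdown of fructose, had 9.48 and 14.6 CPM and 24.3 and 28.5 CPM (log2 fold change 1.098, adjusted p = 0.255, limma). The lower genes, named after their values were seen, were DLD, a subunit of pyruvate dehydrogenase, with 8.77 and 8.47 CPM in the young and 2.84 and 4.44 CPM in old sows, and PFKFB1, which sets fructose-2,6-bisphosphate, with 1.97 and 1.01 CPM and 0.357 and 0.334 CPM.

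**Figure D4:**
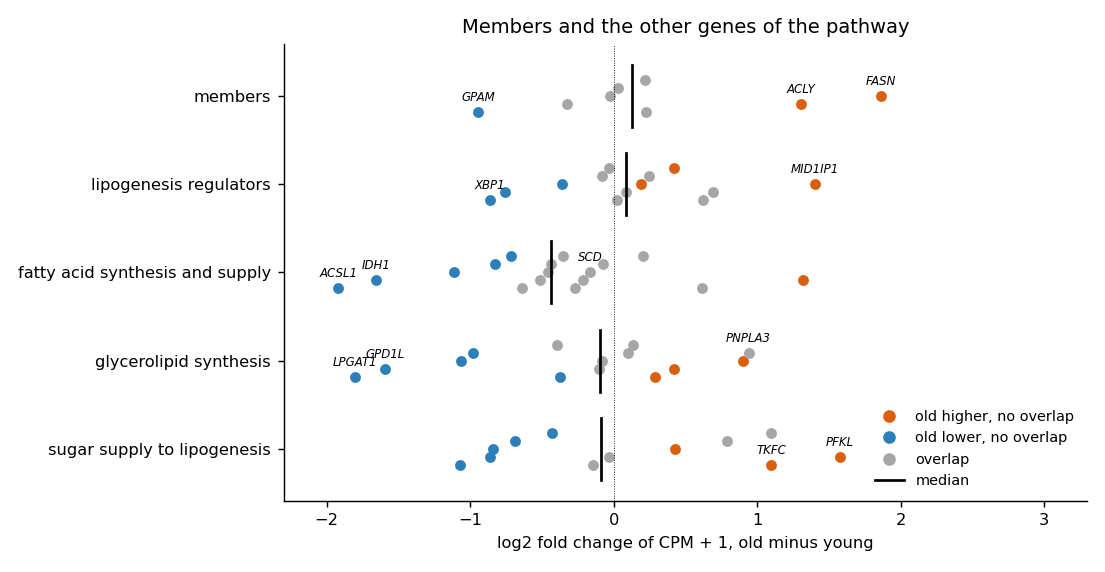
Log2 fold change of CPM + 1, old minus young (x axis), of the 8 genes and of the other genes of the pathway in 4 lists (y axis, vertical offsets within a list carry no value). Each point is a gene, orange where both old livers were above both young ones, blue where both were below and grey where the ages overlapped, and black bars are medians. Medians run from -0.44 for fatty acid synthesis and supply to 0.13 for the 8 genes, and FASN, at 1.86, is the highest point drawn.

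Other cell types were read from their markers beside these results. The 6 macrophage markers with a row summed to 238 and 281 CPM in young sows and to 444 and 296 CPM in old sows, with 1 (CD68) higher at an unadjusted p-value under 0.05 in limma. CLEC4F, a Kupffer cell lectin, was at 21.0 and 32.2 CPM in the young and at 102 and 0.933 CPM in old sows, and C1QA was between 181 and 255 CPM. The 8 stellate cell and fibroblast markers summed to 20.7 and 40.2 CPM and to 15.7 and 54.9 CPM, with COL3A1 from 5.53 to 23.1 CPM and ACTA2 from 3.18 to 11.7 CPM, and the 4 skeletal muscle markers, led by TNNC2 and ACTA1, summed to at most 2.30 CPM in any library. RSAD2 and MX1, the highest interferon-stimulated genes, reached 618 and 269 CPM in old replicate 1 against at most 7.28 CPM elsewhere. Without old replicate 1, the log2 fold changes of FASN, ACLY and GPAM were 2.33, 0.80 and -0.74. The part of these marker differences in the results for the 8 genes was not tested.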

How the data were processed

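Total liver RNA of 4 sows was depleted of rRNA and sequenced as paired-end reads. According to the methods and the submitters' processing notes, the authors used TopHat2 2.0.14 for alignment to Sscrofa10.2, assembled transcripts with StringTie 1.2.3 and deposited 1 value per gene and library that they name TPM, from Salmon 0.6.0. The deposited values behave as CPM: in each library at least 99.987% of values above 0 were a whole number of reads (within 0.1 read) times a single step, so no gene length enters and whole reads were recovered by division. The table gives no positions, and gene sequences were not used here.

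Symbols came from an Ensembl table. Fold changes were fitted with limma 3.58.1 in R 4.3.3 on log2(CPM + 1) without trend, with Benjamini-Hochberg adjustment over all 16898 rows above 0 in at least 2 libraries. edgeR 4.0.16 and DESeq2 1.42.0 on recovered reads, other pseudocounts, filters and scalings, a trend, a replicate block and left-out libraries were alternatives. Fits were tested on simulated counts. Intervals of reads are exact Poisson and cover counting error only. Python 3.11.15 with scipy 1.17.1 and matplotlib 3.10.9 was used. The labels name no batch.

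Named genes were all members with a row, from each pathway list the 2 of largest absolute fold change with a mean of at least 1 CPM and no overlap between ages, 6 genes named whatever their values (SREBF1, SCD, ACACB, ELOVL6, THRSP and PNPLA3), the 2 highest of each marker list and the 5 nearest to FASN. Members and lists were chosen with earlier results of these data known. lncRNA, circRNA and miRNA tables were not used here. Some genes counted in the lists are not reported here by name.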

Additional observations from a re-analysis of the deposited data

How the results depend on the processing

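With limma, no alternative pseudocount, filter, scaling, trend, block or left-out library called any of the 8 genes. The exact test of edgeR and DESeq2 each called 1 gene, FASN, at log2 fold changes of 2.95 and 2.94, and of the pathway lists they called 3 and 4 genes, among them MID1IP1 (2.34 and 2.32) and ACSL1 (-1.73 and -1.75), with IDH1 (-1.52) in DESeq2 alone. At an unadjusted p-value under 0.05, 2 of the 8 genes were higher in the exact test of edgeR, in DESeq2 and with a replicate block, and 0 were lower in the exact test, the quasi-likelihood test and DESeq2. Of the pathway lists, 5 genes were lower in the quasi-likelihood and in the exact test. With 1 library left out, the number of the 8 genes higher at that threshold was 0 to 1 and the number lower 0 to 1, the number without overlap was 2 to 4 (higher) and 1 to 3 (lower), and 5 to 9 pathway genes were lower. These counts change with fewer libraries by construction, and the cause of the other differences was not tested.

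The sign of MLXIPL turned to 0.15 with TMM and 0.13 with DESeq2 size factors, and was 0.17 in both tests of edgeR and 0.14 in DESeq2. SCD turned to 0.011 with TMM, 0.28 in both tests of edgeR and 0.25 in DESeq2. With 1 library left out, log2 fold changes ran from -0.16 to 0.60 for ACACA, -0.24 to 0.31 for ME1, -0.18 to 0.62 for LPIN1, -0.69 to 0.033 for DGAT1, -0.23 to 0.18 for MLXIPL, -1.26 to 0.93 for SCD and -0.0014 to 1.88 for PNPLA3. The split of all rows at an unadjusted p-value under 0.05 in limma was 1145 higher and 1509 lower. It moved to 1495 and 955 with TMM and to 1454 and 1009 with DESeq2 size factors. FASN, ACLY and GPAM kept their direction under every alternative. Because their age groups do not overlap, a left-out library, pseudocount, filter, trend or block could not turn it. Only the scalings and the tests on reads could have done so.

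Replicate numbers of unrelated sows do not pair them, and deviations of same-numbered libraries correlated at 0.09 over 16898 rows. With the number as a block, the unadjusted p-value of ACLY was 0.00846 (limma), and adjusted p-values of FASN, ACLY and GPAM were 0.344. Each age had 2 animals, and LPIN1 and ME1 had the fewest reads in a library, 7 and 43.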

Other observations

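In some genes of the pathway the gap between replicates was wider than that between ages, and it ran the same way in both ages. INSIG1, which retains SREBP in the endoplasmic reticulum and is itself an SREBP target, had 8.48 and 17.2 CPM in young replicates 1 and 2 and 12.4 and 29.4 CPM in old replicates 1 and 2. SCD had the same order within each age, and so did LPIN1. PKLR, the liver pyruvate kinase and a ChREBP target, was high in 1 library, with 26.3 CPM in old replicate 2 against 4.68 to 7.33 CPM elsewhere, the library in which FASN was also highest. These genes were chosen after their values were seen, replicate numbers do not pair the sows, and the differences were not tested.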
